A study of Ovis aries with 3 samples.

Results

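The transcripts described here are XM_012153432.1, XM_004020215.2 and XM_012104137.1, which the study listed under fat digestion and absorption for the comparison of cecum and colon. They were found by their identifiers in the exon tables and make up 3 of 83089 transcripts and 22 of 903107 exon rows. The study's supplement pairs XM_012153432.1 with the symbol LOC101107420. The RefSeq gene table (assembly ARS-UI_Ramb_v3.0) names the gene of XM_012104137.1 LOC101109935. XM_004020215.2 was assigned to LOC101103860, because it shares 11 of its 13 exons with XM_012102995.1, which that table names so. The 3 transcripts are called by these symbols below.

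RNA of the mucosal epithelium was sequenced from the duodenum, the cecum and the proximal colon of healthy small-tailed Han ewes aged 11 months. Tissue of 3 ewes was pooled for each region, so each region is 1 library without replicates and differences between animals cannot be seen. All intervals below are exact 95% intervals for the sampling of reads only. The exon tables hold 68649323 estimated exon reads of the duodenum library, 64368455 of the cecum library and 74984599 of the colon library, and a count of 0 allows up to 5.90e-06%, 6.48e-06% and 5.57e-06% of the respective read totals (3 reads).

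Dietary fat reaches the small intestine largely as triacylglycerol, phospholipid and cholesteryl ester. Lipases release fatty acids and monoacylglycerol from triacylglycerol, and secreted phospholipases A2 release a fatty acid and a lysophospholipid from phospholipid. Enterocytes take these products up, re-esterify them and export them in chylomicrons. In ruminants much of the dietary lipid has been hydrolysed in the rumen before it arrives. The study's pathway rows place LOC101107420 and LOC101109935 together under the metabolism of glycerophospholipid, ether lipid, linoleic acid and alpha-linolenic acid, and LOC101103860 under glycerolipid metabolism. These rows and the neighbouring genes given below are the background for the roles of the genes, which the symbols themselves do not state.

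LOC101107420 and LOC101103860 were most abundant in the duodenum, intermediate in the cecum and least abundant in the colon, whereas LOC101109935 had the opposite order. Levels are given in RPKM, reads per kilobase of exon and per 1000000 reads of the library. For LOC101107420 the level was 2665 RPKM (2650 to 2680) in duodenum, 363 (357 to 368) in cecum and 77.8 (75.4 to 80.4) in colon. For LOC101103860 it was 134 RPKM (131 to 136), 48.4 (46.8 to 50.0) and 10.7 (9.99 to 11.4) in the same order. LOC101109935 had 0.797 RPKM (0.604 to 1.04) in duodenum, 8.48 (7.78 to 9.23) in cecum and 51.2 (49.6 to 52.8) in colon. The intervals of neighbouring regions did not overlap for any of the 3 transcripts. The estimated reads behind these levels numbered 120837, 14980 and 3737 for LOC101107420, 11123, 3661 and 938 for LOC101103860, and 56, 541 and 3794 for LOC101109935, so that the duodenal level of LOC101109935 is the least precise of the 9.

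**Figure D1:**
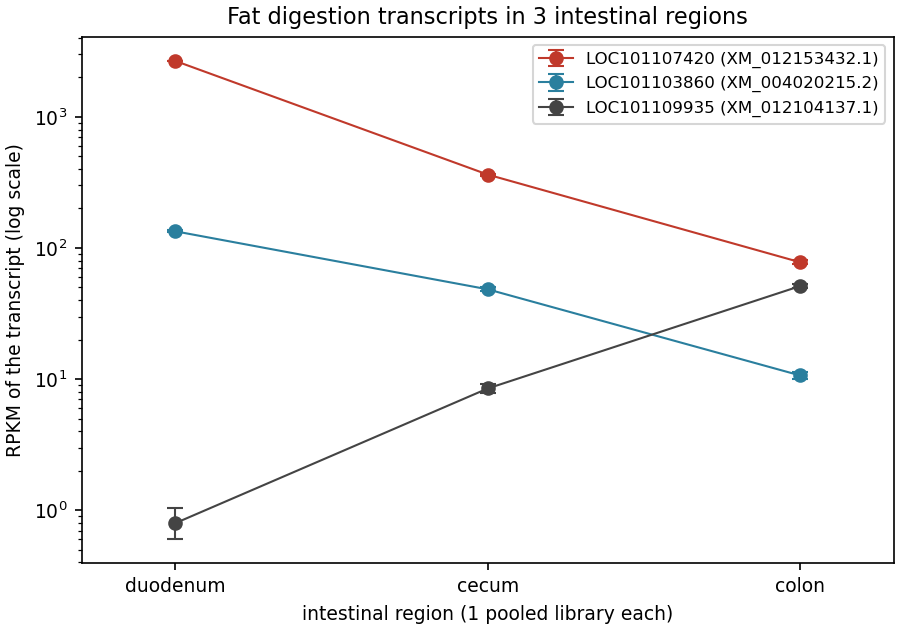
RPKM of each transcript (log axis) in the duodenum, cecum and colon, 1 pooled library each; bars are 95% intervals for the sampling of reads. LOC101107420 falls from 2665 to 77.8 RPKM and LOC101103860 from 134 to 10.7, while LOC101109935 goes from 0.797 to 51.2.

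The cecum and the colon differed by about as much for LOC101107420 as for LOC101103860. LOC101107420 was 4.66-fold higher in the cecum, a log2 ratio of 2.22 (2.17 to 2.27). For LOC101103860 the cecum was 4.54-fold higher, a log2 ratio of 2.18 (2.08 to 2.29). LOC101109935 was 6.04-fold lower in the cecum, with a log2 ratio of cecum over colon of -2.59 (-2.73 to -2.46). A difference was counted as called when RPKM differed at least 2-fold and the Audic-Claverie test of the reads, adjusted by Benjamini-Hochberg over all loci, had a false discovery rate below 0.001; this test compares the reads of 2 libraries and not the regions. All 3 transcripts were called, as were 5.94% of the 16373 loci with at least 1 RPKM in some region (2.91% with the cecum higher and 3.03% with the colon higher). Since the study listed the transcripts for this contrast on these libraries among others, nothing is read from that count.

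Against the duodenum the 3 transcripts spread further apart. The cecal level was 7.35-fold lower than the duodenal level for LOC101107420 (log2 ratio -2.88, -2.90 to -2.85) and 2.77-fold lower for LOC101103860 (-1.47, -1.52 to -1.41). For LOC101109935 it was 10.6-fold higher (3.41, 3.01 to 3.83). All 3 differences were called, where 17.8% of all loci were called, 11.2% as higher in the cecum and 6.66% as higher in the duodenum. In the colon LOC101107420 was 34.2-fold lower than in the duodenum (log2 ratio -5.10, -5.14 to -5.05), LOC101103860 was 12.6-fold lower (-3.65, -3.75 to -3.55) and LOC101109935 was 64.2-fold higher (log2 interval 5.62 to 6.41). With 1 RPKM added to each value, which weighs most on its low duodenal level, the log2 ratios of LOC101109935 were 2.40 for cecum over duodenum and 4.86 for colon over duodenum. All 3 differences between colon and duodenum were called without this addition. Of all loci 16.5% were called in that contrast without it, 9.14% as higher in the colon and 7.32% as higher in the duodenum. Both contrasts use the same duodenal library. Over all loci the median log2 ratio was 0.05 (cecum over duodenum), -0.02 (colon over duodenum) and 0.09 (cecum over colon).

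The ranking of the 3 transcripts changed along the intestine. Here the RPKM of each transcript was set against that of other loci, taken over the exons of all their transcripts. These are unlike measures, so the ranks are approximate. Over its whole locus LOC101107420 had 2018 RPKM in the duodenum, and LOC101109935 had 60.7 in the colon. In the duodenum 9 of 26163 loci with reads had a higher RPKM than LOC101107420, 594 were above LOC101103860 and 15694 above LOC101109935. In the cecum the corresponding numbers were 251, 1678 and 7341 of 25872 loci. In the colon they were 948, 6129 and 1481 of 26379 loci. LOC101107420 exceeded LOC101109935 by 3342-fold in duodenum (2565 to 4410), 42.8-fold in cecum (39.2 to 46.7) and 1.52-fold in colon (1.45 to 1.59). LOC101103860 was 168-fold above LOC101109935 in the duodenum and 5.70-fold above it in the cecum, but in the colon LOC101109935 was 4.80-fold above LOC101103860. The ratio between LOC101107420 and LOC101103860 moved less, from 19.9-fold in duodenum (19.5 to 20.3) to 7.50-fold in cecum (7.23 to 7.77) and 7.30-fold in colon (6.79 to 7.85), and the last 2 intervals overlap.

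The differences were present in every exon. The exon tables give positions 245534085 to 245538018 for the 4 exons of LOC101107420 (892 bp), 35968790 to 35988035 for the 13 exons of LOC101103860 (1634 bp) and 13563440 to 13583137 for the 5 exons of LOC101109935 (1377 bp), without a chromosome or build. All 4 exons of LOC101107420, all 13 of LOC101103860 and all 5 of LOC101109935 differed at least 2-fold in the direction of their transcript in each of the 3 contrasts. Exons of 1 transcript share their source and are not replicates.

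In LOC101107420 the exon levels kept one order in every region, with exon 3 highest, then exon 2, exon 4 and exon 1. Exon 3 had 5262 RPKM in duodenum, 754 in cecum and 160 in colon. Exon 1 had 1421, 152 and 34.9 RPKM. The highest exon therefore exceeded the lowest by 3.70-fold in duodenum, 4.96-fold in cecum and 4.57-fold in colon. The log2 ratio of cecum over colon lay between 2.12 and 2.27 in the 4 exons, that of cecum over duodenum between -3.22 and -2.75, and that of colon over duodenum between -5.35 and -5.02. Reads covered 94.54% to 100% of each exon in the duodenum and 100% in the colon, but only 78.4% of exon 1 in the cecum, where that exon held 1141 reads.

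**Figure D2:**
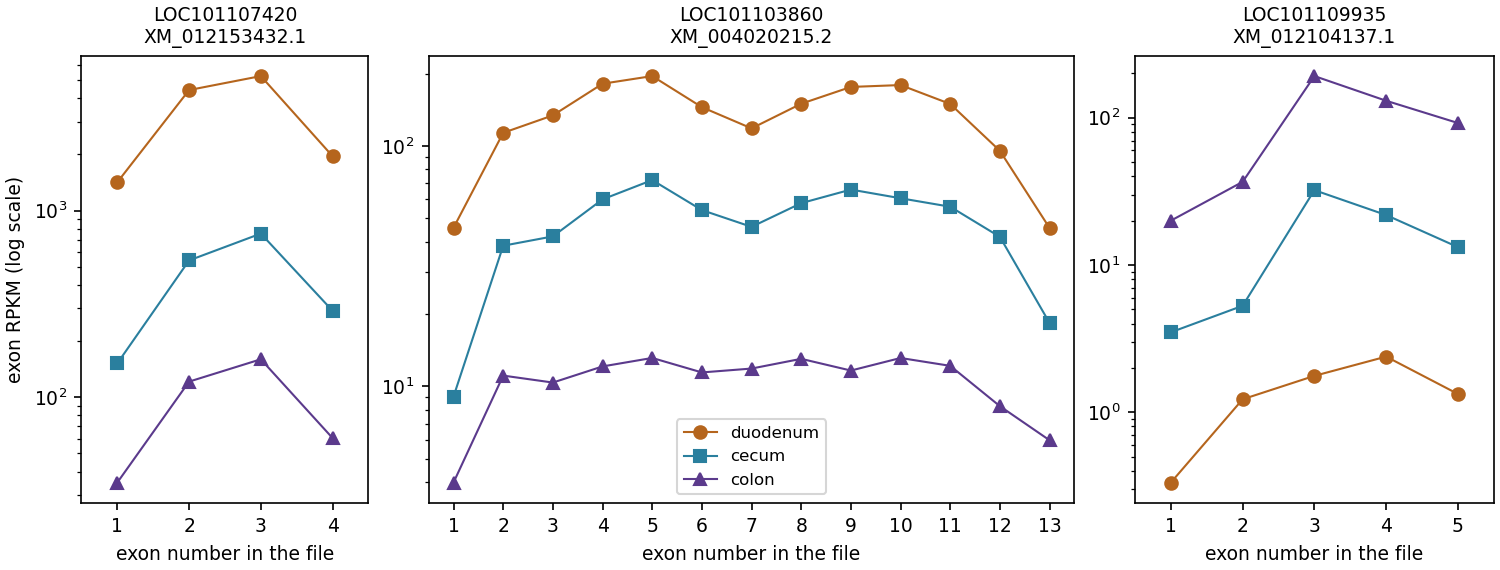
RPKM (log axis) of each exon of the 3 transcripts, numbered as in the exon tables, in the duodenum (circles), cecum (squares) and colon (triangles). Exon 3 is highest and exon 1 lowest in all 3 regions for LOC101107420, exon 5 is highest in all 3 for LOC101103860, and the lines of the regions do not cross in any panel.

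LOC101103860 had its highest level in exon 5 in every region, at 195 RPKM in duodenum, 72.1 in cecum and 13.1 in colon. The terminal exons were lowest. Exon 1 had 45.7, 9.08 and 3.99 RPKM and exon 13 had 45.6, 18.4 and 5.98 RPKM. The cecum over colon log2 ratio ran from 1.19 in exon 1 to 2.50 in exon 9 with a median of 2.20. Exon 1 rested on 42.9 estimated reads in the cecum and 21.9 in the colon and was covered over 56.86% to 70.59% of its length, while the other 12 exons were covered over more than 95% in each region. Exon 1 also had the largest decrease from duodenum to cecum, a log2 ratio of -2.33 against -1.67 to -1.19 in exons 2 to 13.

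LOC101109935 was highest in exons 3 and 4. Exon 3 had 1.76 RPKM in duodenum, 32.2 in cecum and 192 in colon. In exon 4 the levels were 2.38, 21.8 and 130 RPKM. The 933 bp exon 1 was lowest in every region with 0.333, 3.49 and 20.0 RPKM, so the highest exon was 7.16-fold, 9.23-fold and 9.59-fold above it. Cecum over colon log2 ratios were close to each other across the 5 exons, from -2.80 to -2.52. Those of colon over duodenum ranged from 4.91 to 6.76 and those of cecum over duodenum from 2.11 to 4.19, where the duodenal exons held between 5.55 and 18.4 estimated reads.

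**Figure D3:**
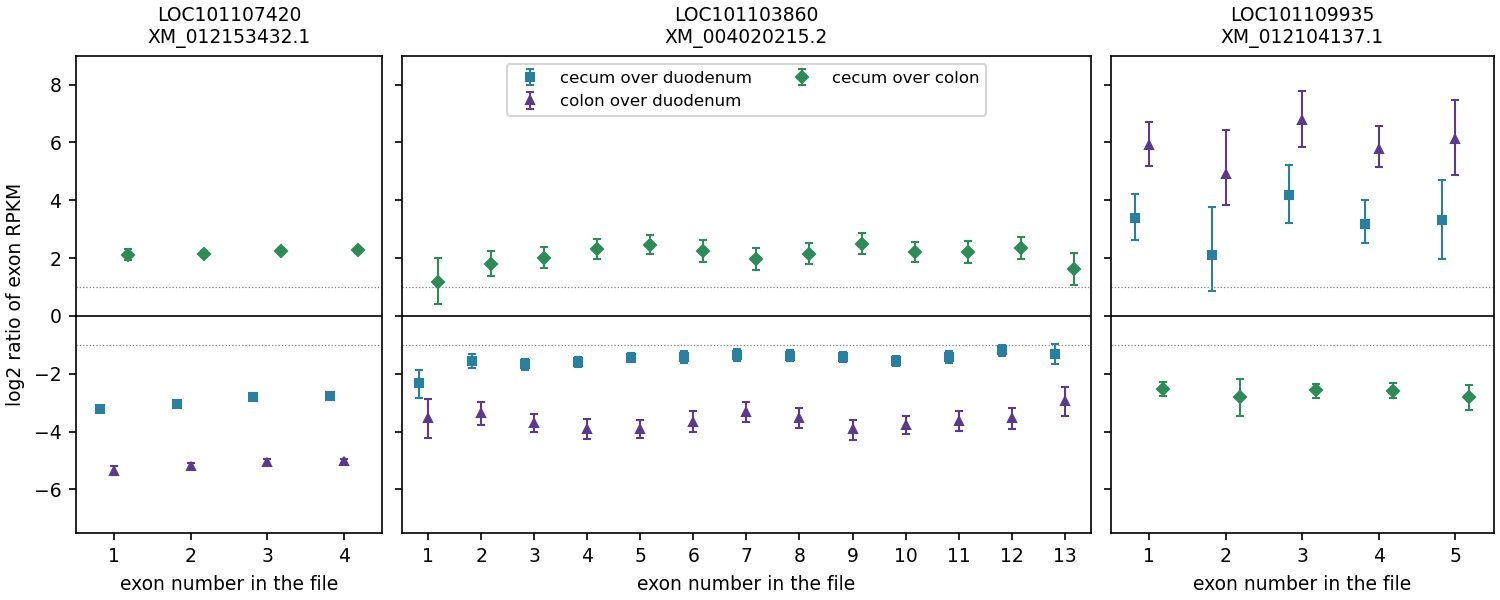
log2 ratio of exon RPKM for cecum over duodenum (squares), colon over duodenum (triangles) and cecum over colon (diamonds); bars are 95% intervals for the sampling of reads and dotted lines mark a 2-fold difference. The cecum over colon ratio lies between 1.19 and 2.50 in the 17 exons of LOC101107420 and LOC101103860 and between -2.80 and -2.52 in the 5 exons of LOC101109935.

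The exon tables hold alternative transcripts of each gene, and these kept the pattern of the member. XM_012171513.1, which shares 2 exons with LOC101107420 and overlaps its other exons, had 2124, 289 and 62.0 RPKM in the duodenum, cecum and colon. Only 10 of its exons, which are numbered up to 23, were listed, and unlisted exons are not in its length. Its RPKM can therefore be too high. Its listed exons that do not overlap the member held at most 3.07 reads in any region. Its level thus comes almost wholly from the stretch it has in common with the member. XM_012102995.1, the other transcript of LOC101103860, had 125, 45.4 and 9.98 RPKM. LOC101109935 has 3 more transcripts in the tables. XM_012104135.1 had 0.772, 7.74 and 47.4 RPKM, XM_012143926.1 had 1.64, 17.4 and 107 RPKM, and XM_012143929.1 had 1.70, 17.3 and 107 RPKM. Reads on shared or overlapping exons are largely the same reads, so these values are not independent of the member. The transcripts with a shorter exon 1 had about double the RPKM of XM_012104137.1 in the colon.

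The extra length of the LOC101109935 exon 1 carried few reads of its own. Only 29.47% of the 933 bp was covered in duodenum, 56.7% in cecum and 74.71% in colon. The 201 bp form of the exon in XM_012143926.1, which has the same end, was covered fully in each region. It held 15.2, 143 and 1014 estimated reads in the duodenum, cecum and colon, against 15.8, 151 and 1004 for the 933 bp form. RPKM of XM_012104137.1 was thus divided by a length of which much held almost no reads, which lowers its level against transcripts with shorter ends but not its ratios between regions.

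Other exons of LOC101109935 had unequal levels, and the cause of this was not tested. The 102 bp exon 2, which XM_012143929.1 lacks, had 16.4% (10.3 to 25.2) of the RPKM of the neighbouring 108 bp exon 3 in the cecum and 19.1% (16.3 to 22.2) in the colon, which do not differ beyond their intervals. In the duodenum it had 69.3% on 6.34 and 9.69 reads, with an interval of 19.0 to 193 that allows no comparison. The 131 bp exon, which is in XM_012104135.1 and XM_012143929.1 but not in XM_012104137.1, had 2.47% (0.461 to 6.73) of the RPKM of the 152 bp exon 4 in the cecum and 8.20% (6.37 to 10.3) in the colon. These intervals also overlap, and the cecal value rests on 3.27 reads.

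Among the genes beside LOC101107420 in the RefSeq table are several secreted phospholipases A2. The order in that table is PLA2G2F, PLA2G2D, PLA2G5, LOC101107171, LOC101107420, LOC101107675, PLA2G2E and OTUD3, leaving out noncoding genes. LOC101107171 (XM_004005163.2) had 1952 RPKM in duodenum, 2333 in cecum and 563 in colon. LOC101107675 (XM_004005165.2) had 236, 258 and 34.3 RPKM, and PLA2G2D had 2.04, 1.18 and 4.17. LOC101107171 and LOC101107675 were 4.14-fold and 7.52-fold higher in the cecum than in the colon, beside 4.66-fold for LOC101107420, and all were called. Between duodenum and cecum they were not called, with cecal levels 1.20-fold and 1.09-fold above the duodenal ones, whereas LOC101107420 was 7.35-fold lower. PLA2G2D was 3.54-fold higher in the colon than in the cecum. Reads from similar genes of 1 family can be divided between them by the read assignment, so the levels within this group of genes are uncertain.

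**Figure D4:**
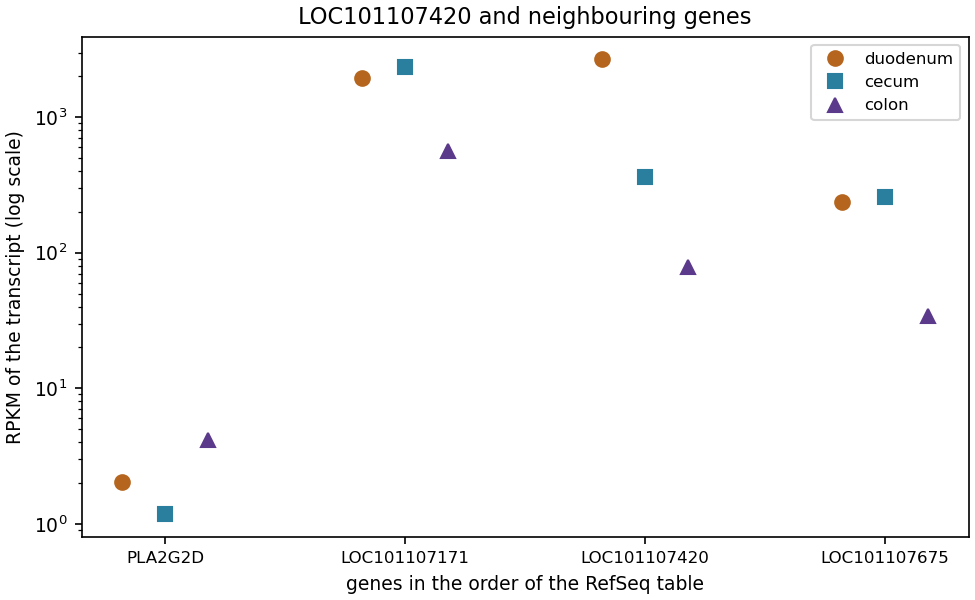
RPKM (log axis) of LOC101107420 and of the 3 of its 10 nearest genes in the RefSeq table that were matched to the exon tables, in the duodenum (circles), cecum (squares) and colon (triangles). LOC101107420 falls at each step from 2665 to 77.8 RPKM, whereas LOC101107171 and LOC101107675 have similar duodenal and cecal levels and are lowest in the colon.

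LOC101103860 lies between LOC101120372 and SPMIP5 in the RefSeq table, next to PNLIP and PNLIPRP3. PNLIP encodes pancreatic lipase, the main lipase of pancreatic juice. PNLIP had 0.208 RPKM in the duodenum, from 2 reads, and no reads in the cecum and colon. LOC101103860 was thus read at 134, 48.4 and 10.7 RPKM beside a neighbour with almost no reads. CEL, the bile salt-dependent lipase of pancreas, and CPA1, a pancreatic carboxypeptidase, were likewise at or near 0, with 0.200 and 0.0605 RPKM in the duodenum. The 3 matched markers of 11 listed for pancreatic acinar cells summed to 0.431 RPKM in duodenum, 0 in cecum and 0.0172 in colon. This sum takes each locus over the exons of all its transcripts, unlike the levels given for the single genes.

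LOC101109935 has PARN, BFAR, LOC114110613 and RRN3 among its nearest genes. PARN, a poly(A) ribonuclease, had 16.3, 17.5 and 16.2 RPKM in the duodenum, cecum and colon, and RRN3, a factor of RNA polymerase I, had 17.1, 14.4 and 12.2 RPKM. Neither was called in any contrast, while LOC101109935 between them ranged from 0.797 to 51.2 RPKM.

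The study's fat digestion rows for the contrast of cecum and colon and for that of duodenum and large intestine list 28 transcripts, of which 22 were in the exon tables and belonged to 18 loci. Against the duodenum 13 of these 18 loci were called as lower in the cecum (6.66% of all loci) and 14 as lower in the colon (7.32% of all loci), and only LOC101109935 was called as higher in either. The median log2 ratio was -2.93 for cecum over duodenum and -4.65 for colon over duodenum. Between cecum and colon 5 loci were called as higher in the cecum (2.91% of all loci), 1 as higher in the colon (3.03% of all loci) and 12 were not called, with a median of 0.21. Without the 3 described loci the remaining 15 gave 3 loci called with the cecum higher and 0 with the colon higher. The study chose these rows on these libraries among others, so their direction is not independent evidence.

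The remaining 3 loci called as higher in the cecum than in the colon were FABP1, PLA2G12B and XM_004009676.2. FABP1, the liver-type fatty acid-binding protein of enterocytes and hepatocytes, had 7692, 967 and 414 RPKM in the duodenum, cecum and colon, 2.34-fold higher in the cecum. PLA2G12B, a catalytically inactive relative of the secreted phospholipases A2, had 22.2, 9.13 and 3.74 RPKM and was 2.44-fold higher in the cecum. XM_004009676.2 fell from 92.1 RPKM in the duodenum to 0.927 and 0.266. LOC101107420 and LOC101103860 had larger ratios between cecum and colon than any of these 3, which reached 3.49-fold.

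A list of fat digestion genes by role was read beside them. Calls for its genes are those of the locus, over the exons of all its transcripts, while the levels given are those of a single transcript. Of 44 symbols 22 matched a transcript of the exon tables and 17 reached 1 RPKM. Of these, 2 were called as higher in the cecum than in the duodenum and 9 as lower, 1 as higher in the colon than in the duodenum and 9 as lower, and 2 as higher and 3 as lower in the cecum than in the colon. Of all loci 17.8%, 16.5% and 5.94% were called in these contrasts. The median log2 ratios were -1.32, -2.70 and -0.05.

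Among the phospholipases A2 of that list, 3 of 6 matched genes reached 1 RPKM over their locus. PLA2G12A had 11.3, 19.7 and 22.8 RPKM. By this transcript the colon was 2.01-fold above the duodenum, but the locus was not called in any contrast. PLA2G2C had 1.27, 0.285 and 0.322 RPKM, PLA2G1B, the pancreatic phospholipase A2, had 0.362, 0.198 and 0.0569, and PLA2G3 had 0.104, 0.162 and 0.254. Of the 6 matched genes PLA2G2D, PLA2G12A and PLA2G3 had their highest value in the colon, but PLA2G3 was too low to be tested. Only PLA2G2D was called as higher in the colon than in the cecum, beside 3.03% of all loci.

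Several genes of uptake and chylomicron assembly had under 3 RPKM in both cecum and colon, where LOC101107420 and LOC101103860 had at least 77.8 and 10.7 RPKM. FABP1, given above, also kept high levels there. FABP2, the intestinal fatty acid-binding protein, had 1313, 0.503 and 0.427 RPKM. APOA4, an apolipoprotein of chylomicrons, had 308, 0.197 and 0.272, and APOA1 had 229, 2.91 and 2.54. NPC1L1, which takes up cholesterol, had 10.3, 0.0510 and 0.130 RPKM, and ABCG5, a subunit of the transporter that returns sterols to the lumen, had 13.6, 0 and 0.00833. In the same group SOAT2, which esterifies cholesterol, had 20.1, 0.142 and 0.385 RPKM and ABCG8 had 19.1, 0.153 and 0.764, both called as higher in the colon than in the cecum. ABCA1, a cholesterol exporter, was called as higher in the cecum than in the duodenum, with 4.26, 8.60 and 7.56 RPKM. SAR1B, needed to move chylomicrons out of the endoplasmic reticulum, had 20.8, 13.6 and 12.8 RPKM and was not called.

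Of the 4 genes of triacylglycerol resynthesis tested, 1 was called in any contrast. Of all loci 17.8% were called for cecum against duodenum, 16.5% for colon against duodenum and 5.94% for cecum against colon. Nothing is read from the count of 1. DGAT1, which adds the last fatty acid of triacylglycerol, had 102, 54.4 and 56.3 RPKM and AGPAT1 (XM_004018920.2), which acylates lysophosphatidic acid, had 21.4, 11.6 and 14.9, and neither was called. Of the phosphatidic acid phosphatases PLPP1 had 28.6, 36.7 and 22.2 RPKM and was not called. PLPP3 had 17.7, 48.7 and 26.3 RPKM and was called as higher in the cecum than in the duodenum.

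**Figure D5:**
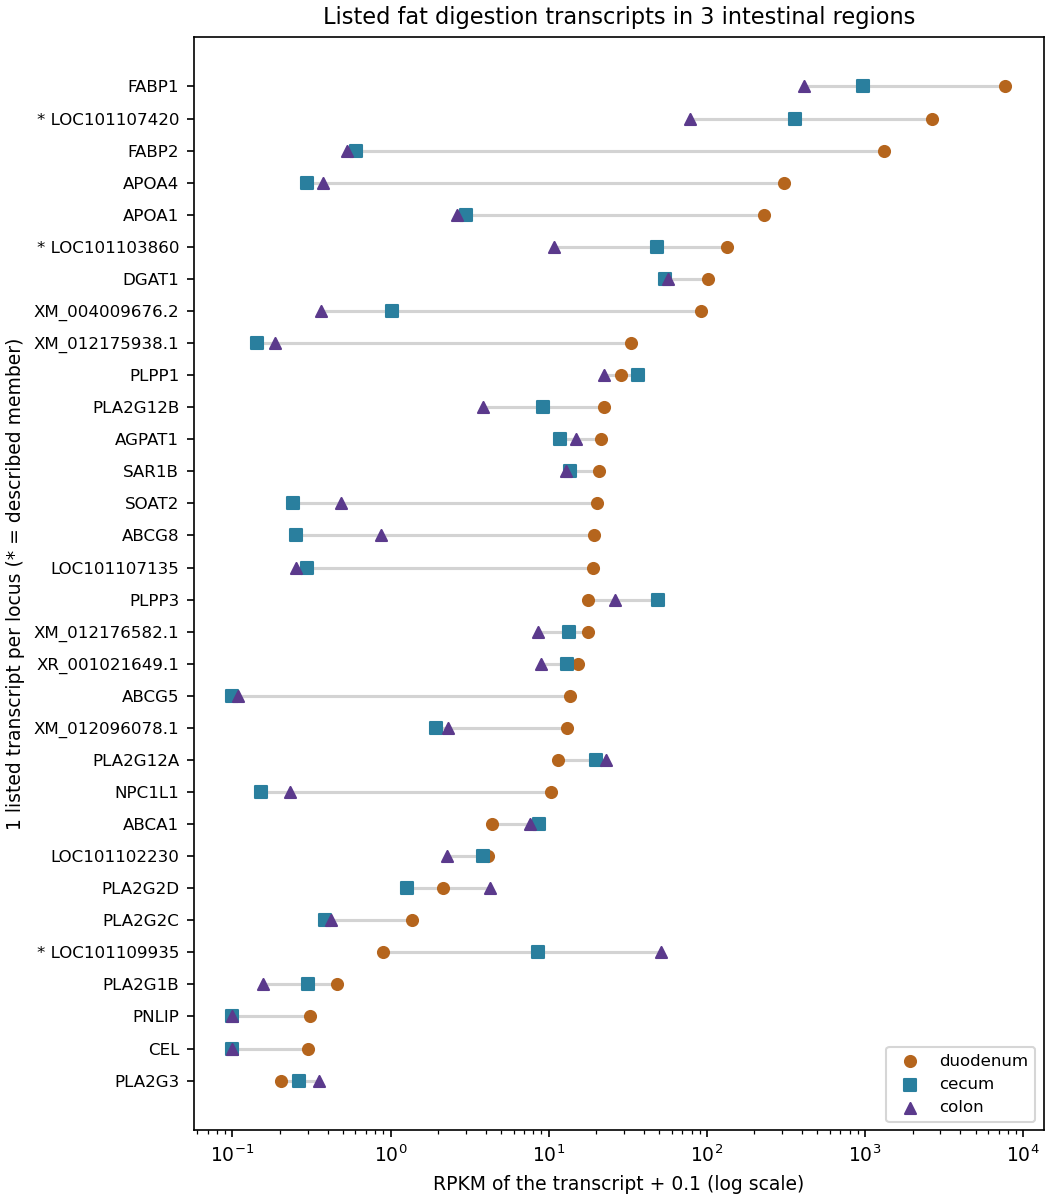
RPKM + 0.1 (log axis) in the duodenum (circles), cecum (squares) and colon (triangles) of 1 transcript for each of the 32 loci on the fat digestion lists, sorted by duodenal level; stars mark the 3 described transcripts. LOC101109935 goes from 0.797 RPKM in the duodenum to 51.2 in the colon, where FABP1, LOC101107420 and DGAT1 are higher at 414, 77.8 and 56.3 RPKM.

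The lipid rows for cecum and colon, each of which lists at least 1 of the described transcripts, were also counted. Over the rows of that contrast (fat digestion, glycerophospholipid, glycerolipid, ether lipid, linoleic and alpha-linolenic acid) 15 loci were tested, 3 were called as higher in the cecum, 2 as higher in the colon and 10 were not called. Of the 12 loci besides the 3 described ones 2 were called, beside 5.94% of all loci. XM_004009676.2 was higher in the cecum and ACHE, acetylcholinesterase, was higher in the colon. ACHE had 1.25, 2.38 and 19.1 RPKM in the duodenum, cecum and colon. DGKA, a diacylglycerol kinase, had 51.1, 34.2 and 31.0 RPKM and was not called.

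Markers of several cell types moved with the regions. In bulk tissue, fewer cells of a type and less RNA per cell cannot be told apart. The sums below use the level of each marker over its locus, that is over the exons of all its transcripts. Levels given for single genes are those of a single transcript, so they need not add up to the sums. The matched absorptive enterocyte markers (3 of 7, FABP2, APOA4 and LCT) summed to 1377 RPKM in duodenum, 1.63 in cecum and 1.59 in colon, so they fell with LOC101107420 and LOC101103860 from the duodenum but were near each other in cecum and colon. Plasma cell markers (JCHAIN and MZB1, 2 of 3 listed) summed to 6748 RPKM in duodenum, 3753 in cecum and 694 in colon, the order of LOC101107420 and LOC101103860. Goblet cell markers (3 of 6) had sums of 4816, 9330 and 28489 RPKM, and Paneth or Brunner gland markers (3 of 5) had 1495, 2090 and 127232, nearly all TFF2. The order of these sums is that of LOC101109935, but for the Paneth or Brunner gland list it is that of TFF2 alone. LYZ had 23.8, 29.8 and 12.0 RPKM and MMP7 had 1.09, 0.296 and 0.176. Most of the change in the goblet sum came from SPINK4, with 844, 4905 and 21237 RPKM. TFF3 had 3117, 3357 and 3499 RPKM and was not called in any contrast. AGR2 was called as higher in the colon than in either other region, but not between duodenum and cecum. Colonocyte markers (2 of 4) summed to 5.78, 25.9 and 35.4 RPKM and adipocyte markers (2 of 3) to 6.62, 20.3 and 29.7. Smooth muscle markers (2 of 3) had 271, 1501 and 948 RPKM, so both regions of the large intestine were above the duodenum. The part of these cell types in the results for the 3 transcripts was not tested.

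The loci with the most similar profile were found among 7444 loci with at least 10 RPKM in some region, by the distance between centred log2(RPKM + 0.1) values over the 3 regions. For LOC101107420 these included C5, a complement component, at a distance of 0.223 with 53.3, 8.56 and 1.42 RPKM, C4BPA, which binds complement C4b, at 0.601, and FABP1 at 0.773. For LOC101103860 the nearest locus was XM_012136634.1 at 0.115 with 521, 204 and 46.6 RPKM, and the only named one of 5 was JCHAIN at 0.432. LOC101109935 was nearest to XM_012153721.1 at 0.418, with 327, 2303 and 12679 RPKM, followed by RNASE9 at 0.518, and SLC13A1, a sulfate transporter, was the fifth at 0.676 with 0.479, 3.90 and 17.0 RPKM. With 3 points a profile is easily matched, and the distances are a description.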

How the data were processed

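Paired-end reads came from 1 pooled library of mucosal RNA for each of 3 intestinal regions. Per the study's methods the authors used Bowtie2 and RSEM with version 4.0 of the sheep genome, and the submitters' processing notes name BWA and Bowtie 0.12.2. The deposited exon tables name no build and list each exon of each transcript with an estimated count of reads, RPKM and coverage in percent of its length. The authors computed RPKM from the estimated reads, the exon length and the read total in the header. The percent coverage was deposited by the authors as given. Exon reads summed to 1.35 to 1.39 times the read total, so reads may be counted on several exons and intervals can be too narrow.

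Exon reads were summed per transcript, divided by summed length and total, and compared by 95% Clopper-Pearson intervals of the read ratio. Exons not listed for any region did not count towards the length, so the RPKM of genes with few reads can be too high. Transcripts sharing an exon were joined to 28601 loci. The members were called by transcript and all other genes by locus. Loci with at least 1 RPKM in some region (16373) were tested between regions by the Audic-Claverie test on rounded reads with Benjamini-Hochberg adjustment, in Python 3.11.15 with scipy 1.17.1, and called at 2-fold or more and a false discovery rate below 0.001, with 0 RPKM set to 0.001. The code was tested on simulated data. The accessions of 8735 transcripts matched the RefSeq table. Named genes were the members, the transcripts and symbols of the fat digestion lists, transcripts sharing an exon with a member, the 5 loci nearest in profile and up to 5 neighbouring genes on each side. The 5 neighbours per side and the lipid rows beyond fat digestion were added to the rule later. The members and lists were chosen with earlier results of these data known. Alternatives were other pseudocounts, scalings, filters, thresholds and exon summaries.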

Additional observations from a re-analysis of the deposited data

How the results depend on the processing

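The 9 log2 ratios of the 3 transcripts kept their direction under every alternative tried (no more than 10 each). Other thresholds change only the calls and not the ratios, so they tell nothing about direction. The other alternatives were pseudocounts, scalings and the median or highest exon. A further one used only exons that no other transcript has with the same start and end. Most of those exons overlap exons of other transcripts and so can hold the same reads. That setting therefore does not isolate the reads of 1 transcript. Cecum over colon ranged from 2.13 to 2.24 for LOC101107420, from 1.66 to 2.46 for LOC101103860 and from -2.80 to -2.46 for LOC101109935. For LOC101109935 cecum over duodenum ranged from 2.40 to 3.76 and colon over duodenum from 4.86 to 6.33, both lowest with a pseudocount of 1. With a fold change of 4, the cecum over duodenum ratio of LOC101103860 (-1.47) was no longer called, and the loci of the study's fat digestion rows called as higher in the cecum than in the colon numbered 2. With a fold change of 2 alone, 2 such loci were higher in the colon. The number of all loci called moved by more than 1.5 times under 4 settings. With a pseudocount of 1, it was 1118 for cecum above duodenum, 931 for colon above duodenum, 210 for cecum above colon and 279 for colon above cecum. With no filter it was 1713 for duodenum above cecum, 2391 and 1821 for colon above and below duodenum, and 861 and 1037 for cecum above and below colon. With at least 10 RPKM it was 689 and 453 for cecum above and below duodenum, 565 and 525 for colon above and below duodenum, and 160 and 167 for cecum above and below colon. With a fold change of 4 it was 516 and 493, 546 and 503, and 92 and 199 for the same pairs. No paired analysis was possible because each region is 1 pooled library and the labels carry no replicate numbers, and for the same reason no library could be left out. The duodenal level of LOC101109935, from 56 reads, is the value that depth limits most.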
